A study of Sus scrofa with 150 samples.

Results

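CST3 encodes cystatin C, 1 of 6765 genes with a symbol measured here, and it was read by 3 of the 23999 probe sets tested on the Affymetrix Porcine Genome Array in the livers of 150 pigs. All probe sets that the array's annotation gives the symbol CST3 (Entrez gene 733672) were taken: Ssc.8148.1.S1_at, called probe set A here, Ssc.8148.2.S1_a_at, probe set B, and Ssc.8148.2.S1_at, probe set C. B and C were designed on 1 sequence record and A on another. The gene was selected on measured values of these arrays, namely the agreement of its probe sets, its strongest correlates, and slopes of opposite sign on fat area and drip loss. Those values are therefore described with their errors and no test. Where a value is given for all 3 probe sets, the order is A, B and C.

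Cystatin C is a small secreted protein that blocks cysteine proteases of the papain type, among them cathepsins B, H, L and S and, through a separate site, legumain. Most nucleated cells make it at a steady rate, and its level in blood serum is used to judge how well the kidney filters. Its targets work mainly in lysosomes, the organelles that break down proteins, so the inhibitor is thought to act on protease that has left the cell or is on its way out.

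All pigs were commercial crossbreds labelled Pix(DLxDE), a single group with no treatment, transgene or control. Their livers were taken at slaughter, and 1 array was hybridised per pig. Fat area, measured in cm2 over the long back muscle, averaged 15.2 cm2 (SD 3.25, n = 150), and drip loss, the share of weight that a hung piece of that muscle loses as fluid, averaged 5.54% (SD 2.12, n = 150). Sex, age, family, slaughter day and array batch are not among the labels used here.

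The deposited values are on a log2 scale, and array medians ran from 5.79 to 6.09. 13 arrays stood apart from the others in overall profile, and 2.75% of values lay at the table's floor of 4.09. The label liver was checked on ALB (mean 13.9), APOA1 (13.8) and TTR (13.5), genes of proteins that hepatocytes secrete into plasma, and all lay far above the floor. The liver was sampled whole, so fewer cells of a type and less RNA per cell cannot be told apart in any value below.

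CST3 was far above the floor in every liver and varied little. Probe set A ran from 10.65 through a median of 11.23 to 11.81 on the log2 scale (mean 11.24, SD 0.247, n = 150). B ran from 9.83 through 10.48 to 11.13 (mean 10.48, SD 0.235, n = 150). C ran from 9.09 through 10.11 to 10.85 (mean 10.11, SD 0.293, n = 150). Between the 10th and the 90th percentile of pigs the level differed by 1.60-fold, 1.5-fold and 1.61-fold for A, B and C. Levels of different probe sets are not comparable with each other, because each has its own probes.

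The 3 probe sets ordered the pigs alike, but not equally well. B and C, which share a record, correlated over the pigs with Pearson's r of 0.949 (Spearman's rho 0.938, n = 150). A correlated with B at r = 0.751 (rho 0.715) and with C at r = 0.693 (rho 0.662). All readings of a pig come from the same array, so array effects are shared in these coefficients. With the 5 leading principal components of all other probe sets removed, which together held 42.8% of the variance, the r of A with B and C was 0.808 and 0.785.

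**Figure D1:**
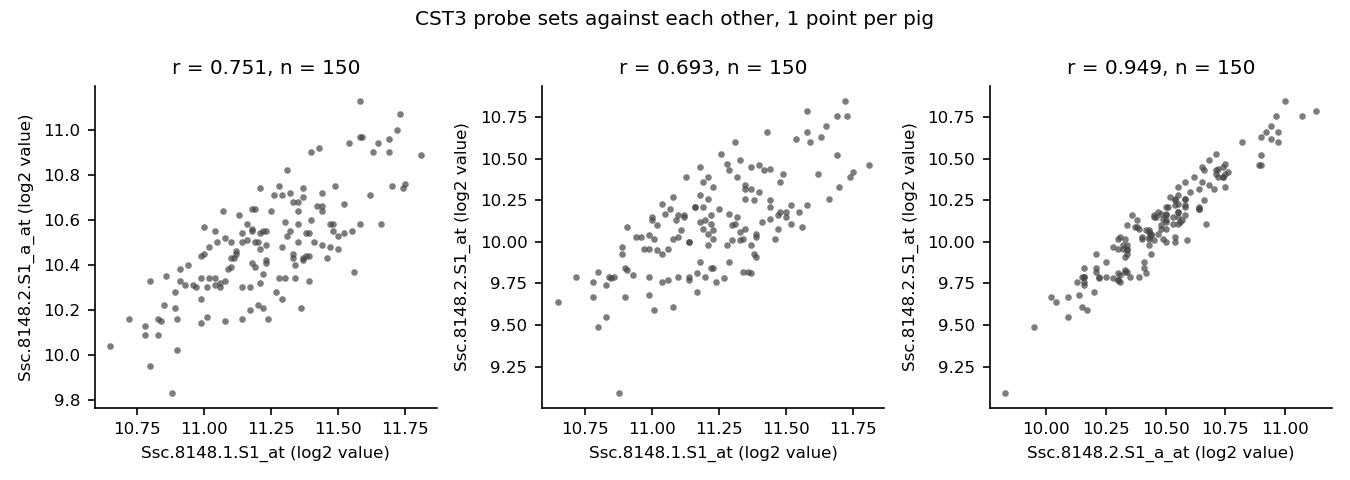
Each panel plots the log2 values of 2 CST3 probe sets against each other, 1 point per pig (n = 150). Probe sets B and C lie close to a line (r = 0.949), and A scatters more widely around both of the others (r = 0.751 and 0.693).

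What probe set A held apart from B was related to several properties of the arrays. None of these properties was named in the choice of the gene, but the agreement of A and B was. The array median and the likeness to other arrays are also taken from all probe sets, as the correlates were. Permutation p-values for those measures and for the A minus B difference are therefore a description. The A minus B difference in log2 value averaged 0.755 (SD 0.171, n = 150) and ran from 0.43 to 1.19. It was larger where the beta-actin control probe sets showed a larger 3 prime minus 5 prime difference, used as a sign of RNA integrity (r = 0.512, rho = 0.515, permutation p = 1e-05, the smallest that 100000 permutations can give; adjusted p = 6.67e-05 over 20 relations). Without the 2 pigs farthest from the median the r was 0.502. The same difference of the GAPDH controls had the other sign and did not pass (r = -0.145, rho = -0.103, permutation p = 0.0768, adjusted p = 0.107, r = -0.115 without 2 pigs). The A minus B difference also ran with the title number (r = 0.326, rho = 0.292, permutation p = 4e-05, adjusted p = 0.00016, r = 0.294 without 2 pigs). It was smaller on arrays of higher median (r = -0.349, rho = -0.360, permutation p = 4e-05, adjusted p = 0.00016, r = -0.350 without 2 pigs). It was larger on arrays more like the others in overall profile (r = 0.327, rho = 0.334, permutation p = 6e-05, adjusted p = 0.0002, r = 0.277 without 2 pigs). Probe set B itself was lower where the beta-actin difference was larger (r = -0.306, rho = -0.291, permutation p = 0.00013, adjusted p = 0.000371, r = -0.268 without 2 pigs). So was C (r = -0.396, rho = -0.394, permutation p = 1e-05, adjusted p = 6.67e-05, r = -0.367 without 2 pigs). A had r = 0.0613 (rho = 0.107, permutation p = 0.457, adjusted p = 0.498, r = 0.0934 without 2 pigs). With the GAPDH difference all 3 were lower: A had r = -0.303 (rho = -0.249, permutation p = 0.00016, adjusted p = 0.0004, r = -0.274 without 2 pigs). B had r = -0.213 (rho = -0.226, permutation p = 0.00908, adjusted p = 0.0165, r = -0.201 without 2 pigs). C had r = -0.277 (rho = -0.329, permutation p = 0.00054, adjusted p = 0.0012, r = -0.266 without 2 pigs). The 2 control genes thus gave different answers for A. Probe set A was lower on arrays of higher median (r = -0.441, rho = -0.431, permutation p = 1e-05, adjusted p = 6.67e-05, r = -0.417 without 2 pigs). So was B (r = -0.210, rho = -0.206, permutation p = 0.00987, adjusted p = 0.0165, r = -0.180 without 2 pigs), while C did not pass (r = -0.150, permutation p = 0.0662, adjusted p = 0.102). A was higher on arrays more like the others (r = 0.218, rho = 0.219, permutation p = 0.00653, adjusted p = 0.0131, r = 0.156 without 2 pigs). B and C did not pass there (r = -0.00830 and 0.0591). The part of these measures in the other results was not tested beyond slopes with them as covariates, which are given below.

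Livers of pigs with more fat held more CST3 signal on average. In the 30 pigs of smallest fat area probe set A ran from 10.84 through a median of 11.10 to 11.50, and in the 30 of largest from 10.93 through 11.36 to 11.81. B ran from 10.02 through 10.41 to 10.71 and from 10.25 through 10.63 to 11.13. C ran from 9.59 through 10.09 to 10.53 and from 9.76 through 10.27 to 10.79. The ranges overlapped broadly for all 3, and the highest pigs of the fat group lay above every pig of the lean group. The means differed by 0.20 (SE 0.0592), 0.24 (SE 0.0538) and 0.26 (SE 0.0674) on the log2 scale, or 1.15-fold, 1.18-fold and 1.19-fold.

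Over all 150 pigs the slope per SD of fat area was 0.0714 (SE 0.0195) for probe set A, 0.0783 (SE 0.0184) for B and 0.0844 (SE 0.0230) for C, in log2 units. The corresponding Pearson's r was 0.289, 0.333 and 0.288, and Spearman's rho 0.293, 0.296 and 0.248. Without the 2 pigs farthest from the median, r was 0.267, 0.320 and 0.285. By the size of slope over SE the 3 ranked 71, 29 and 72 of 23999 probe sets. At a Benjamini-Hochberg adjusted p under 0.05 in limma, 0.125% of all probe sets were called on fat area, 0.0792% with a positive slope, and nothing is read from the place of CST3 against them.

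The relation was not an even gradient. In probe set B the means of successive groups of 30 pigs, from lean to fat, were 10.40, 10.49, 10.41, 10.48 and 10.64, with SDs between 0.178 and 0.279. In C they were 10.04, 10.12, 10.00, 10.09 and 10.29. The fattest 30 pigs, at a mean of 20.2 cm2, thus stood above the other groups, among which no order was visible. Probe set A went from 11.15 through 11.22, 11.20 and 11.28 to 11.35, a more gradual course.

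Livers of pigs with higher drip loss held slightly less CST3 signal on average. In the 30 pigs of lowest drip loss probe set A ran from 10.78 through 11.31 to 11.75, and in the 30 of highest from 10.65 through 11.13 to 11.63. B ran from 9.83 through 10.55 to 10.97 and from 10.04 through 10.44 to 10.90. C ran from 9.09 through 10.18 to 10.76 and from 9.64 through 10.07 to 10.63. The groups overlapped almost completely, and the lowest single value of B and of C belonged to a pig of low drip loss. The mean differences were -0.10 (SE 0.0609), -0.12 (SE 0.0605) and -0.11 (SE 0.0771), a 1.07-fold, 1.08-fold and 1.08-fold higher level at low drip loss.

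The slope per SD of drip loss was -0.0487 (SE 0.0199), -0.0549 (SE 0.0190) and -0.0550 (SE 0.0236) for A, B and C. Pearson's r was -0.197, -0.233 and -0.188, and Spearman's rho -0.196, -0.237 and -0.206. Without 2 pigs r was -0.228, -0.246 and -0.205. The slopes of A and C ranked only 1021 and 1323 of 23999, with B ahead of both, and limma called 0% of all probe sets on drip loss. Along successive groups of 30 pigs the step lay in the middle: A averaged 11.29 and 11.32 in the 2 groups of lowest drip loss and 11.18, 11.23 and 11.18 in the others.

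**Figure D2:**
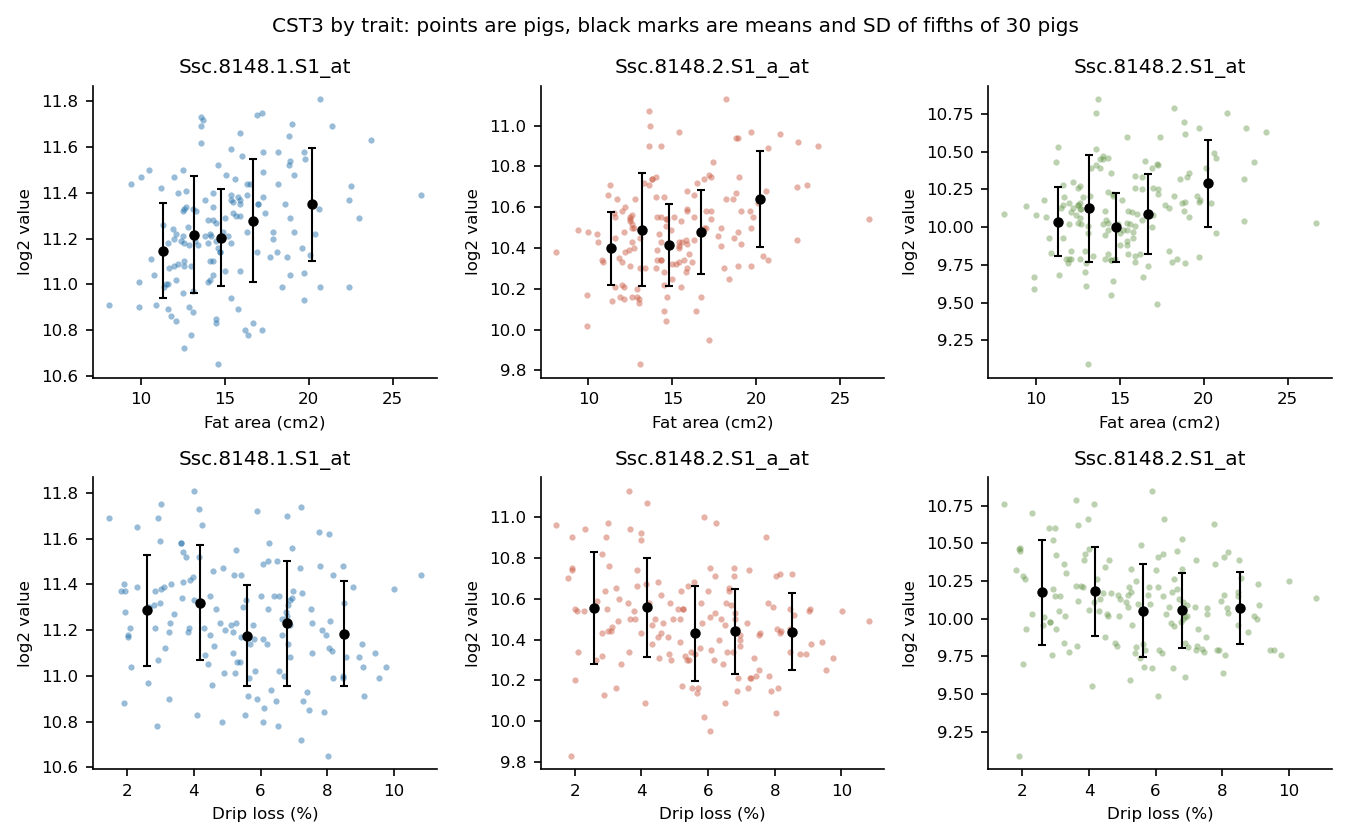
Log2 value of each CST3 probe set (columns) against fat area in cm2 (upper panels) and drip loss in percent (lower panels), 1 point per pig. Black marks are the mean and SD of successive groups of 30 pigs: in probe set B the fattest group averaged 10.64 against 10.40 in the leanest, and the points overlap throughout.

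The opposite signs on the 2 traits are among the values the gene was chosen for. The traits themselves showed little relation over the pigs (r = -0.0794, rho = -0.0544). In a model with both traits the slope on fat area was 0.0680, 0.0744 and 0.0805 and the slope on drip loss -0.0433, -0.0490 and -0.0486, close to the single-trait values. The difference between them was 0.111 (SE 0.0262), 0.123 (SE 0.0246) and 0.129 (SE 0.0310), ranking 8, 1 and 16 of 23999. Limma called 0.00833% of all probe sets on that difference. Both traits together took up 11.4%, 15.4% and 11.1% of the variance of the 3 probe sets, so most of the variation between pigs lay outside them.

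With each trait split at its median, the 39 pigs of more fat and less drip loss averaged 11.35 (SD 0.232), 10.59 (SD 0.224) and 10.22 (SD 0.285) on the 3 probe sets. The 39 pigs of less fat and more drip loss averaged 11.14 (SD 0.241), 10.41 (SD 0.209) and 10.04 (SD 0.268). The 36 pigs high in both averaged 11.26, 10.46 and 10.08, and the 36 low in both 11.21, 10.47 and 10.09, between the opposite corners. The SD within each of these groups was at least as large as the distance between the corner means.

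The signs of all slopes were the same in all 11 settings shown, while their sizes moved. The slope on fat area lay between 0.0565 and 0.0738 for probe set A, 0.0719 and 0.0860 for B, and 0.0751 and 0.0946 for C. The slope on drip loss reached its smallest sizes at -0.0210 for A with the 5 components as covariates, and at -0.0387 and -0.0267 for B and C with the control probe sets' 3 prime minus 5 prime differences. Within 10 blocks of title numbers, each of 6 to 24 pigs and of unknown meaning, r with fat area was positive in 9 of 10 for every probe set, with medians of 0.366, 0.377 and 0.338. For drip loss r was positive in 4, 1 and 3 of the 10 blocks.

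**Figure D3:**
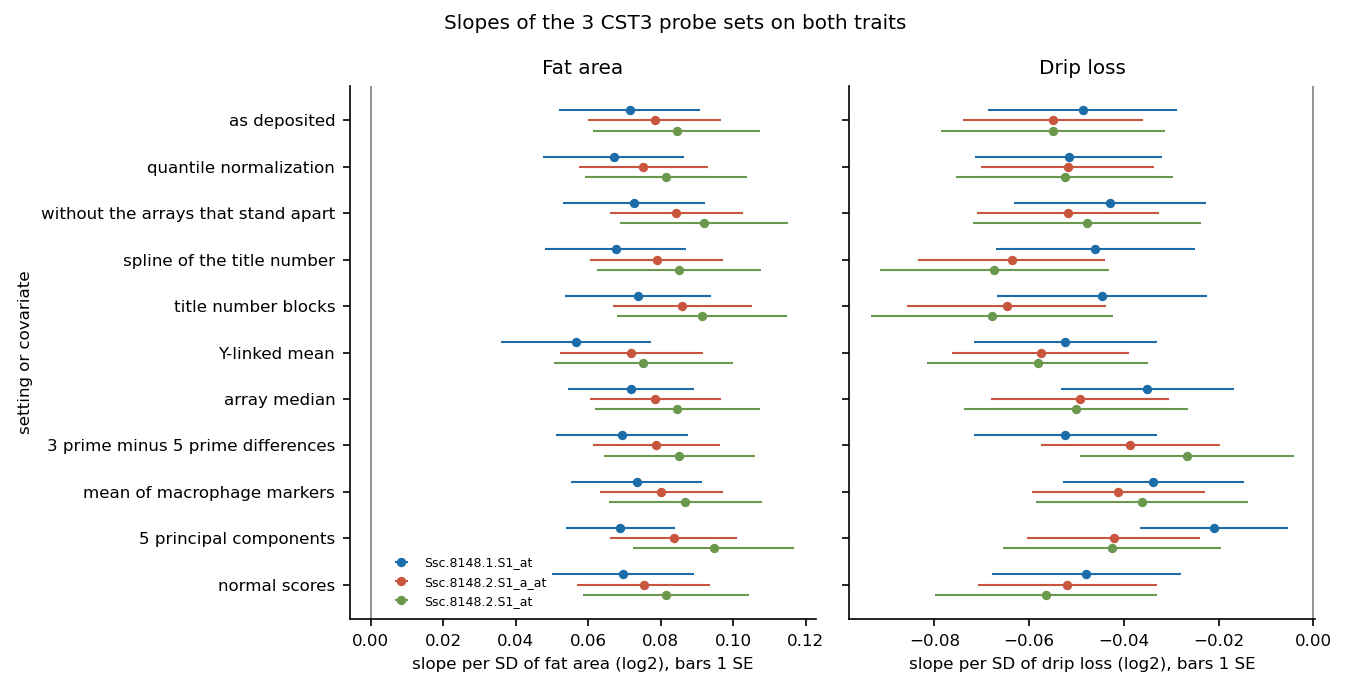
Slope of each CST3 probe set per SD of fat area (left) and of drip loss (right) in log2 units, with bars of 1 SE, under the deposited values and 10 alternatives or covariates. All fat slopes lie above 0 and all drip slopes below 0; the slope of probe set A on drip loss is smallest with 5 principal components (-0.0210).

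EIF1AY, a gene known from the Y chromosome, divided the pigs into 73 with values up to 4.72 and 77 with values from 5.64, without a value between. These clusters are not groups of the labels. They differ in fat area, on which CST3 was chosen, so limma's calls on the level are a description. The median of probe set A was 11.33 in the cluster of higher EIF1AY and 11.18 in the lower, and the means were 0.15 (SE 0.0386) higher, with 0.11 (SE 0.0377) for B and 0.15 (SE 0.0464) for C. With both traits as covariates the differences were 0.13 (SE 0.0414), 0.07 (SE 0.0396) and 0.11 (SE 0.0497). None of these passed in limma (adjusted p = 0.202, 0.596 and 0.462), where 0.279% of all probe sets did. Without the traits as covariates the difference of A passed in limma (adjusted p = 0.0272). Those of B and C did not (adjusted p = 0.199 and 0.161).

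Fat area averaged 13.8 cm2 (SD 2.84, n = 73) in the lower cluster and 16.6 cm2 (SD 3.06, n = 77) in the higher, and the fat slope was also taken within each. Within the lower cluster the fat slope was 0.0467 (SE 0.0315), 0.0372 (SE 0.0301) and 0.0150 (SE 0.0373). Within the higher it was 0.0478 (SE 0.0284), 0.0891 (SE 0.0272) and 0.104 (SE 0.0337). Probe set C's rank correlation with fat area was -0.0972 in the lower cluster and 0.308 in the higher. The difference between the clusters' slopes was 0.00109 (SE 0.0424), 0.0519 (SE 0.0406) and 0.0892 (SE 0.0503), and none passed limma's interaction test (adjusted p = 0.998, 0.806 and 0.676), by which 0% of all probe sets were called. The drip slopes were -0.0572, -0.0513 and -0.0449 in the lower cluster and -0.0492, -0.0666 and -0.0762 in the higher.

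Across all other probe sets, the gene of most similar pattern to CST3 probe set A was DGCR2, which encodes a membrane protein, at r = 0.783 (0.583 and 0.526 with B and C). The other 11 of the 12 most similar genes lay between r = 0.671 and 0.715 over the 150 pigs. BORCS6 (0.715) and SNAPIN (0.677) encode subunits of a complex that moves lysosomes within the cell. SIDT2 (0.698) encodes a lysosomal membrane protein, GABARAP (0.696) a small protein attached to autophagosome membranes, and NAGPA (0.671) the enzyme that uncovers the mannose 6-phosphate tag of lysosomal enzymes. TBCB (0.695) is a tubulin folding factor, MRPS24 (0.674) a mitochondrial ribosomal protein, and IL11RA (0.672) the interleukin 11 receptor; AAMP and BOLA1 (both 0.679) and CDIP1 (0.673) complete the set. These coefficients were what the gene was chosen for and carry no test.

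The likeness was not equal for the 3 probe sets. NAGPA correlated at 0.268 and 0.201 with B and C, BORCS6 at 0.331 and 0.273, but CDIP1 at 0.630 and 0.595. Of the 100 genes with a symbol most like A, 27 were also among the 100 most like B and 14 among those most like C, against 76 shared by B and C. All 12 genes had a positive r with fat area (0.0102 to 0.269) and a negative r with drip loss (-0.239 to -0.0486), and 0 of the 12 were called on either trait, beside 0.125% and 0% of all probe sets. These signs are not separate from the choice. The 12 were taken for likeness to probe set A, and CST3 for slopes of these signs.

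The 8 genes of most opposite pattern had r between -0.615 and -0.576 with probe set A. SERP1 (-0.615) encodes a stress-linked protein of the endoplasmic reticulum (ER) membrane, and STT3B (-0.576) a catalytic subunit of the enzyme that attaches sugar chains to new proteins there. CYB5A (-0.587) encodes cytochrome b5, EIF2S2 (-0.598) a subunit of a translation initiation factor, DHX9 (-0.597) an RNA helicase and VBP1 (-0.583) a chaperone subunit. MTDH (-0.584) and RSRC2 (-0.579) were the others. With probe sets B and C all 8 were weaker, between -0.395 and -0.210.

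A broad share of the array followed probe set A. At a limma adjusted p under 0.05, 49.2% of the other 23996 probe sets were called, 21% higher and 28.1% lower with it. For probe set B the shares were 12.1% and 12.4%, and for C 13% and 11.2%. With the 5 components as covariates they were 6.49% and 1.9% for A (8.39% in all), 10.8% and 5.7% for B, and 13.4% and 6.8% for C. Probe set A had r = 0.530 with the leading component against 0.238 and 0.234 for the others. Higher with each of the 3 CST3 probe sets were 8.96% of all probe sets and lower with each 8.27%. Because correlates of CST3 were among the values the gene was chosen for, these calls, and those of the gene lists given beside them, are a description.

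Ranked by the lowest of the 3 coefficients, a choice made after the values were seen, the leading gene was CD82, a membrane protein of the tetraspanin family (r = 0.601, 0.641 and 0.672). It was followed by FCGRT (0.601, 0.597 and 0.601), the receptor that recycles antibodies and albumin, and by CDIP1, PIGT and GLYCTK. With the 5 components removed, DGCR2 led (0.611, 0.606 and 0.612), followed by SMAP2 and CIDEB. CIDEB (0.610, 0.591 and 0.589) encodes a lipid droplet protein of hepatocytes involved in lipoprotein release. ALAD, SAT2, ASS1 and LCAT stood lower in the same 12. APCDD1 of that set was 1 of the probe sets called on fat area (slope 0.136, SE 0.0311, limma adjusted p = 0.0228, but 0.127 with the Y-linked mean as covariate), and its r with CST3 after removal was 0.524, 0.555 and 0.546.

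Among other members of the cystatin family, CSTB and KNG1 had opposite signs in the deposited values. CSTB encodes cystatin B, which stays inside the cell, and it was higher with all 3 CST3 probe sets (r = 0.644, 0.401 and 0.329). KNG1 encodes kininogen, a plasma protein with cystatin domains made by the liver, and it was lower with all 3 (r = -0.424, -0.362 and -0.321). With the components removed CSTB was still called with all 3 (0.267, 0.292 and 0.257), whereas KNG1 was called with none (-0.0800, -0.0948 and -0.106). HRG (r = -0.224) and AHSG (-0.239), other secreted liver proteins with cystatin domains, were called lower with probe set A, as was CST6 (-0.201). None of these 3 was called with B or C, and AHSG had 0.0458 with C. CST11 had r between -0.0874 and -0.00964. Of 13 listed family members 6 were measured, 1 was higher and 1 lower with all 3 probe sets, beside 8.96% and 8.27% of all probe sets. None was called on a trait, beside 0.125% on fat area and 0% on drip loss.

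The cysteine cathepsins, the family of enzymes that cystatin C acts on, were mixed. CTSB, among the most abundant cathepsins of liver lysosomes, was higher with all 3 probe sets (r = 0.382, 0.483 and 0.581) and had r of 0.450, 0.439 and 0.530 with the components removed. CTSH was higher with all 3 (0.313, 0.241 and 0.239), but was called with none after removal (-0.00329, 0.116 and 0.158). CTSZ was higher with B and C (0.263 and 0.372) and CTSW with A and B (0.402 and 0.239). After removal CTSZ kept both calls, and CTSW lost both (-0.00145 and 0.0888). CTSK, best known from bone-resorbing cells, was lower with B and C (-0.291 and -0.255), and after removal with B alone (-0.232 and -0.175). LGMN, CTSV, CTSS and CTSC passed with none, at r between -0.169 and 0.139. The median r over the 9 measured genes of 12 was 0.04, 0.06 and 0.14, beside -0.02, -0.03 and -0.02 over all probe sets.

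Other lysosomal proteases gave 2 of 5 measured genes higher with all 3 probe sets, beside 8.96% of all probe sets. CTSD, an aspartic protease that cystatin C does not inhibit, had r = 0.332, 0.564 and 0.561. TPP1, which clips peptides from the end of proteins, had 0.416, 0.405 and 0.380. After removal of the components both were called with B and C but not with A (CTSD 0.166, TPP1 0.191). PRCP, SCPEP1 and CPQ passed with none in the deposited values, with r from -0.176 to 0.176. After removal CPQ was called lower with B and C (-0.263 and -0.232) but not with A (-0.232), and PRCP and SCPEP1 with none.

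Lysosomal enzymes and membrane proteins were mostly higher in livers with more CST3 signal. Of 21 measured genes of 26, 12 were higher with all 3 probe sets and 0 lower with all 3, beside 8.96% and 8.27% of all probe sets. GRN, a protein that passes to lysosomes and is cleaved there, had r = 0.516, 0.584 and 0.590. PSAP, the precursor of the saposins, had 0.524, 0.549 and 0.555, and LAMP1, a main protein of the lysosomal membrane, 0.484, 0.452 and 0.478. MCOLN1, a calcium channel of that membrane, had 0.644, 0.475 and 0.486. LAMP2 (r = -0.290) and GLA (-0.210) were lower with probe set A, but with the components removed they had 0.191 and 0.202 and were not called. The median r was 0.33, 0.27 and 0.26, and 0.14, 0.20 and 0.24 with the components removed, when 5, 10 and 12 of the 21 were called higher and 0 lower (6.49%, 10.8% and 13.4% of all probe sets higher). TFEB, the factor that drives lysosomal genes, was higher with B and C (0.488 and 0.550) and had 0.147 with A. None of the 21 was called on a trait, and their slope on fat area was positive in 13.

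**Figure D4:**
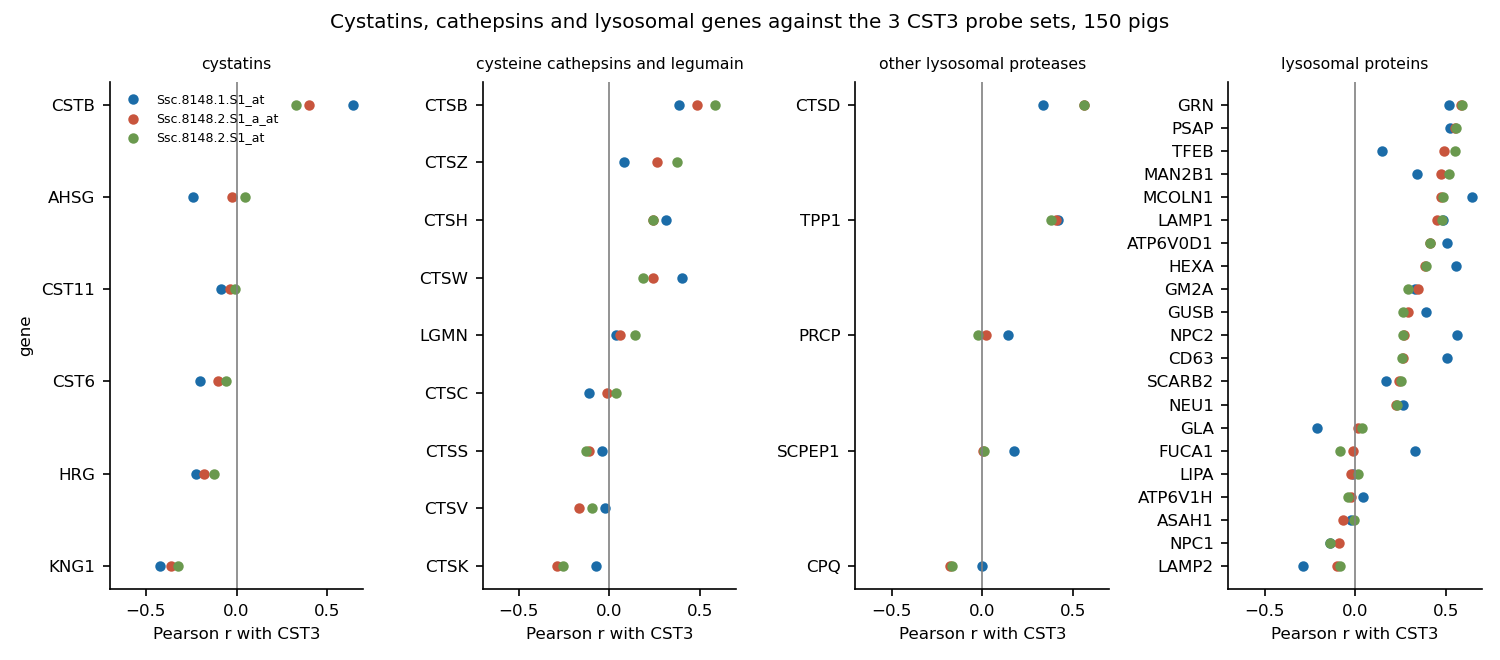
Pearson's r over 150 pigs between each measured gene of 4 lists (cystatins, cysteine cathepsins with legumain, other lysosomal proteases, lysosomal proteins) and the 3 CST3 probe sets, in 3 colours. CSTB, CTSB, CTSD, TPP1 and GRN lie right of 0 for all 3 probe sets, and KNG1 lies left (-0.424 to -0.321).

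Macrophages, which hold many lysosomes and make cystatin C, were followed by a list of 17 markers, 11 of them measured and none with a value at the floor in any pig. Of these, 6 were higher with all 3 probe sets and 0 lower, beside the same 8.96% and 8.27%. C1QC (r = 0.464, 0.386 and 0.398) and C1QA (0.345, 0.395 and 0.450) encode chains of complement C1q, which liver macrophages make. TYROBP (0.428, 0.306 and 0.282) and FCER1G (0.463, 0.260 and 0.217) encode signalling adaptors of myeloid cells. With the components removed 2, 5 and 5 of the 11 were called higher, beside 6.49%, 10.8% and 13.4% of all probe sets, and the median r was 0.11, 0.13 and 0.12. C1QC (0.323, 0.345 and 0.363) and CD5L (0.464, 0.282 and 0.292) were still called with all 3. C1QA (0.324 and 0.392), CD14 (0.276 and 0.374) and CD74 (0.351 and 0.398) were called with B and C. TYROBP (-0.00474, 0.0611 and 0.0722) and FCER1G (0.107, 0.0535 and 0.0169) lost every call. CD163 was lower with probe set A (r = -0.213) and had values near 0 with the others (-0.00244 and 0.00284). After removal it had 0.109 with A and was not called.

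The mean of the 11 markers ran from 8.64 to 9.54 in the 30 leanest pigs and from 8.75 to 9.80 in the 30 fattest, and had r = -0.0207 with fat area (rho -0.0445). It ran from 8.80 to 10.11 in the 30 pigs of lowest drip loss and from 8.64 to 9.64 in the 30 of highest, with r = -0.174 (rho -0.138). With this mean as a covariate the CST3 slopes on fat area were 0.0734, 0.0801 and 0.0868, no smaller than without it. The slopes on drip loss were -0.0338, -0.0411 and -0.0363, smaller in size than without it.

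Genes of the secretory route were called lower with CST3 more often than higher, though not as a block. Of 23 measured genes of the ER and secretory pathway, 1 was higher and 7 were lower with all 3 probe sets, beside 8.96% and 8.27% of all. Lower were TMED10 (r = -0.548, -0.346 and -0.311) and TMED2 (-0.432, -0.352 and -0.330), which sort cargo between ER and Golgi, and CANX (-0.447, -0.240 and -0.214), a folding chaperone. HSP90B1 was lower with probe set A (-0.480) and had -0.177 and -0.180 with the others, which did not pass. With the components removed TMED2 was still called with all 3 (-0.237, -0.313 and -0.305). TMED10 (-0.233, -0.208 and -0.166) and CANX (-0.167, -0.141 and -0.0697) were called with none, nor was HSP90B1 with A (-0.217). Over the 23 genes 4, 8 and 8 were then called lower, beside 1.9%, 5.7% and 6.8% of all probe sets. DNAJB11 was lower with all 3 (-0.387, -0.308 and -0.320). Called higher were 0, 1 and 1, beside 6.49%, 10.8% and 13.4%, and the median r was -0.17, -0.14 and -0.14. The slope on fat area was positive in 2 of the 23 genes, and none was called.

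Plasma proteins of the hepatocyte varied between probe sets. Of 18 measured genes 2 were higher with all 3 CST3 probe sets and 0 lower, beside 8.96% and 8.27%. CLU, a secreted chaperone, was higher with all 3 (0.234, 0.445 and 0.538), as was VTN (0.247, 0.337 and 0.392). APOB, the scaffold of very low density lipoprotein, was lower with A (-0.472) and had -0.105 and -0.0641 with the others; with the components removed its r was 0.349, 0.459 and 0.511. Among serpins and other secreted protease inhibitors 2 of 19 were higher with all 3 and 0 lower, beside the same 8.96% and 8.27%: SERPING1, the C1 inhibitor (0.225, 0.411 and 0.512), and TIMP2, an inhibitor of matrix metalloproteases (0.431, 0.448 and 0.421). SERPIND1 was higher with B and C (0.358 and 0.453). CLU and SERPING1 were, with the components removed, still called with all 3, VTN with C alone (-0.00645, 0.215 and 0.296), and TIMP2 with B and C but not A (0.106).

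**Figure D5:**
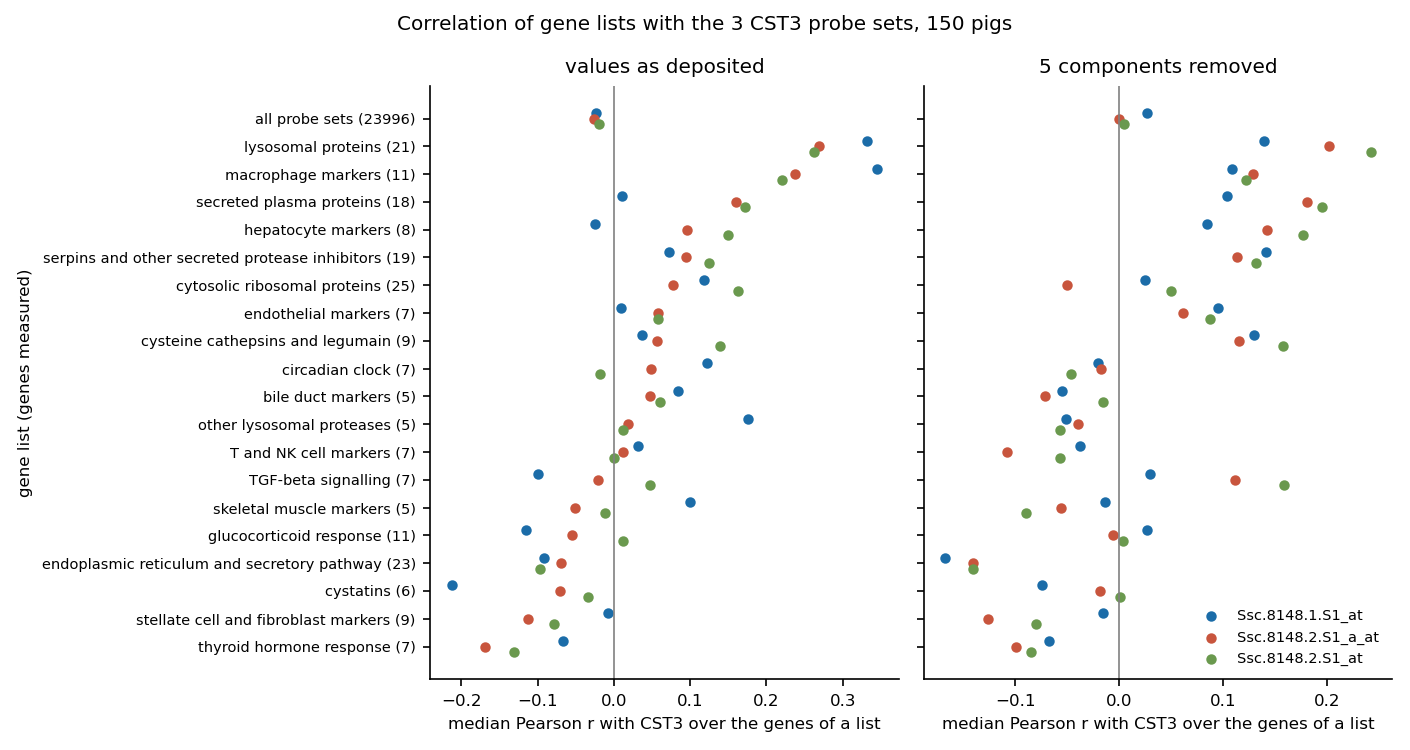
Median Pearson's r over the measured genes of each list with at least 5 of them, for the 3 CST3 probe sets, with the values as deposited (left) and with 5 principal components removed (right), 150 pigs. The lysosomal list (0.33, 0.27 and 0.26) and the macrophage list (0.35, 0.24 and 0.22) lie farthest right in the left panel, and all probe sets lie near 0 (-0.02, -0.03 and -0.02).

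Among all listed genes measured, 2 were called on fat area, DBP and EIF1AY, and 0 on drip loss, beside 0.125% and 0% of all probe sets. With the Y-linked mean as covariate neither was called on fat area (limma adjusted p = 0.214 for DBP and 0.769 for EIF1AY, which enters that mean itself). DBP also missed the threshold with 5 components (0.0903) and EIF1AY with normal scores (0.0690). DBP, a transcription factor of the circadian output, was higher with all 3 CST3 probe sets as well (r = 0.506, 0.350 and 0.338) and had r = 0.332 with fat area.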

How the data were processed

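Liver RNA of 150 pigs was hybridised to 1 Affymetrix Porcine Genome Array each. The deposited table holds values per probe set that are log2 by their range, with 2 decimals; the submitters' processing notes name GCOS 1.1.1. How probes were summarised, corrected for background and normalized is not given in the sources used here. Nothing in the labels says how the pigs relate to each other. The p-values take the pigs as independent, so a family, slaughter day or array batch shared by some is not allowed for. Precision is limited by how many arrays there are.

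Of 24123 probe sets 124 controls were left out. Symbols came from the array annotation (10069 probe sets with 1 symbol, 198 with several, 13732 with none), updated through the pig gene table of Sscrofa11.1, which was used for names and gene order only. Slopes were fitted with limma 3.58.1 (lmFit, eBayes with trend) in R 4.3.3 over all 23999 probe sets and expressed per SD of the trait; calls used Benjamini-Hochberg adjusted p under 0.05 over the whole table. Probe sets following CST3 were called likewise, with a CST3 probe set as predictor. In lists a gene counted once, by its probe set of highest mean. The calls on CST3 as predictor describe and do not test, since correlates were part of the choice. Correlations with array measures had two-sided permutation tests of 100000 resamples, some of which only describe, as stated with them. The fit was tested on simulated data. Other computing used Python 3.11.15.

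Members, lists and rules were chosen with earlier results of these data known. The rule named the 12 genes of highest and 8 of lowest r with the CST3 probe set of highest mean, all measured cystatins and cysteine cathepsins, up to 4 genes of each other list by size of r, and the 3 nearest measured neighbours on each side. CD163, LAMP2, GLA, TFEB, CANX, TYROBP and other list members beyond that number, and genes ranked by the lowest of 3 coefficients or after components were removed, were chosen after their values were seen. Alternatives were quantile normalization, normal scores, leaving out the 13 arrays that stand apart, probe sets above the median level, and as covariates a spline or blocks of the title number, the Y-linked mean, the array median, the 3 prime minus 5 prime differences and 5 principal components; the macrophage mean and the EIF1AY clusters were added after the data were seen.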

Additional observations from a re-analysis of the deposited data

How the results depend on the processing

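No slope of CST3 probe set A changed sign in any setting run. Its slope on fat area stayed within 1 SE in 10 of 12 settings and was 0.0467 and 0.0478 within the lower and higher EIF1AY clusters. Its slope on drip loss did so in 11 of 12 and was -0.0210 with 5 principal components, where the fat minus drip difference was 0.0830. The r between probe sets A and B was 0.712 after quantile normalization and 0.808 with the components removed. The number of probe sets following A was 11797. With the array median as covariate it was 4827, and with 5 components 2014. Among probe sets above the median level it was 7748, where fewer were tested, so the share called was higher than the 49.2% over all. Listed genes count by their probe set of highest mean, so shares over all probe sets are not matched to them in level. For probe sets B and C the number was 5876 and 5809, and 3968 and 4854 for these with 5 components. The other settings gave counts within 1.5 times. Of listed genes 2, DBP and EIF1AY, were called on fat area. It was 1 (DBP) among probe sets above the median level, a setting that leaves out EIF1AY by its low level. It was 0 with the Y-linked mean as covariate, a mean that EIF1AY enters itself, and the cause of the loss of DBP was not tested. No paired analysis was possible because the labels give 1 group without replicate pairs. Values near the floor of 4.09 understate differences, which touches no CST3 probe set.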

Other observations

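Clock genes were split in direction in the 7 that were measured. CRY2, a repressor of the clock, was higher with all 3 CST3 probe sets (r = 0.433, 0.427 and 0.408 over 150 pigs), as was DBP. ARNTL, the activator of the loop, was lower with all 3 (-0.377, -0.313 and -0.329), and so was RORA (-0.411, -0.349 and -0.347). Over the list 2 were higher and 2 lower with all 3, beside 8.96% and 8.27% of all probe sets. Slaughter times are not among the labels used here. With the 5 components removed CRY2 had 0.267, 0.397 and 0.430, and ARNTL -0.311, -0.297 and -0.336, all still called. RORA had -0.125, -0.173 and -0.201 and lost all 3 calls.

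Cystatin C is known to antagonise a TGF-beta receptor, and 7 genes of that pathway were measured. SMAD3 was higher with all 3 probe sets (r = 0.402, 0.376 and 0.388), and SMAD4 (-0.476, -0.295 and -0.255) and TGFB2 (-0.237, -0.347 and -0.322) were lower with all 3, beside the same shares of all probe sets. SMAD4 was called with none after removal of the components (-0.0836, -0.125 and -0.0504). TGFB2 had 0.0231 with A and was called with B and C (-0.232 and -0.240). SMAD3 had 0.190 with A, not called, and was called with B and C (0.296 and 0.338). TGFB1 was higher with B and C (0.381 and 0.410) and had 0.128 with A, and these calls held after removal (0.274 and 0.322). Glucocorticoids and thyroid hormone are known to alter serum cystatin C. Of 11 measured genes of the glucocorticoid response 0 were higher and 1 was lower with all 3 probe sets, and of 7 of the thyroid hormone response likewise 0 and 1, beside 8.96% and 8.27% of all probe sets. The 1 gene was KLF9 in both, as it is on both lists (r = -0.431, -0.316 and -0.283). After removal of the components it was called with none (-0.0673, -0.0995 and -0.0724).

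The nearest measured genes of the CST3 locus did not share its pattern closely. On the side before it, CST11, NXT1 and CD93 had r of -0.0874, 0.361 and 0.223 with probe set A, and on the side after it NANP, SMOX and PANK2 had -0.266, 0.163 and 0.140. NXT1 and CD93 were called higher and NANP lower with A, beside 21% higher and 28.1% lower of all probe sets. With the components removed NXT1 had -0.121.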
